A study of Mus musculus with 6 samples.

Results

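Cxcl9, Cxcl10, Cxcl16, Cxcr3 and Cxcr6 are the genes described here: 3 chemokine ligands and the 2 receptors that read them on T cells. They were taken by name, as 5 of the 19449 genes in the table of unique transcript counts (UMIs) of single spinal cord cells and 5 of the 55351 genes in the count table of naive microglia. All mice were of the C57BL/6 strain. The single cells came from young adult (8 to 12 weeks) and middle-aged (40 to 44 weeks) recipients of MOG-reactive CD4+ T cells that had been primed in donors and cultured with IL-23 under Th17-polarizing conditions, which induces the passive form of experimental autoimmune encephalomyelitis (EAE), a model of multiple sclerosis. Mononuclear cells of 4 spinal cords were pooled per group at day 6 or day 10 posttransfer, and CD45+ cells were sequenced as 1 library per age and day. The pooled tissue holds recipient leukocytes and donor T cells together, and they were not separated here. The bulk libraries, 1 per age, hold microglia sorted as CD45int CD11b+ cells from young and middle-aged mice without EAE.

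CXCL9 and CXCL10 are small secreted proteins that cells make when interferon-gamma signals to them, and both bind CXCR3, the receptor of activated T helper 1, CD8+ and NK cells. CXCL16 is made as a membrane-bound protein that the protease ADAM10 sheds, and it binds CXCR6, a receptor carried by effector and tissue-resident T cells. In EAE, the ligands are known as products of infiltrating myeloid cells and of activated glia, and they draw T cells along or hold them in the inflamed cord.

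On GRCm38, with gene models from GENCODE vM21, Cxcl9 (chromosome 5, 92321347 to 92328079) and Cxcl10 (chromosome 5, 92346638 to 92348889) lie 18558 bases apart on the minus strand. Cxcl16 lies on chromosome 11 (70453983 to 70459984, minus strand), Cxcr3 on chromosome X (101731535 to 101734269, minus strand) and Cxcr6 on chromosome 9 (123806475 to 123811760, plus strand). Cxcl10 lies within Art3, Cxcr6 within Fyco1, and Cxcl16 overlaps Zmynd15, each on the opposite strand. Cxcl9 and Cxcl10 fell together in most cell types (see the day comparison), and the 250 bases upstream of their starts are shown for that reason, from RefSeq (GRCm38.p6), 5′ to 3′ on the minus strand. Capitals mark matches, on either strand, to GAAANNGAA (an interferon response element in short form), GGGANTTCC and GGGANTTTC (NF-kB site forms) and TATAAA.
Cxcl9, chr5:92328080-92328329: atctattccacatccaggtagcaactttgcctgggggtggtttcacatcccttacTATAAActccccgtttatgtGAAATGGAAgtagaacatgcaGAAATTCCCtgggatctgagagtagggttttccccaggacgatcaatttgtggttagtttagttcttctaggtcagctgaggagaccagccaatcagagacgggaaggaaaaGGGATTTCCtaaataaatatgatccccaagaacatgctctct
Cxcl10, chr5:92348890-92349139: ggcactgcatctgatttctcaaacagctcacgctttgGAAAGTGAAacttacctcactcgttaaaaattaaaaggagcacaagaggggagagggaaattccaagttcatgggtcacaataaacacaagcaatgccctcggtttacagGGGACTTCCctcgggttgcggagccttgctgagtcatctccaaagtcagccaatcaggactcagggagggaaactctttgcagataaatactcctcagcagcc

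Both promoters held 1 match to GAAANNGAA, which 7.13% of the 32851 RefSeq promoter stretches of the same length hold, and 1 to GGGANTTCC, which 1.43% hold. The Cxcl9 stretch also held 1 match to GGGANTTTC (0.941% of all stretches) and 1 to TATAAA (12.4%). Neither matched TTCNNNGAA, the gamma-activated site form (7.02%), or TCACACC, a short T-box site (3.33%). The stretches of Cxcr3 and Cxcr6 matched none of the 6 motifs.

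The 4 single-cell libraries held 8315 to 10026 cells and 57337626 to 69859331 UMIs. The authors' 16 clusters were used, and 11 of them had 50 or more cells in each library. Markers named clusters 1 and 5 monocyte/macrophage-like, 0 and 3 neutrophil-like, 7 dendritic cell-like, 10 microglia-like, 2 T cell-like, 9 NK-like and 4 B cell-like. None of the 9 neutrophil markers was among the 10 leading genes of cluster 0, which Rab15, Ifit1bl2 and Il1f9 led. Cluster 8 had its highest marker score for microglia (median log2 ratio to the other clusters 2.54, against 5.09 in cluster 10), but none of the 8 microglial markers was among its 10 leading genes. Its cells were also shallow, with a median of 2059 UMIs in the young day 6 library against 6196 over all cells there. It is called by its number, although clusters 0 and 3 had similar medians there (2365 and 2161 UMIs). The neutrophil score of cluster 0 was 0.23, so its name is no firmer than a microglial one for cluster 8. Pairs of libraries shared 13 to 36 cell barcodes. Levels are given as UMIs of the gene per 1000000 UMIs (CPM) of a cluster in a library, and ratios with 95% exact intervals that cover counting error only. The authors clustered the cells on highly variable genes, and Cxcl10 and Cxcr6 were among the leading genes of clusters 5 and 2, so levels between clusters are a description.

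At day 6 Cxcl10 was highest in cluster 5, with 8977 CPM in the young library and 8141 CPM in the middle-aged library, against 1346 and 1383 CPM at day 10. The neutrophil-like cluster 0 ranked second at day 6, with 5782 and 7613 CPM, and stood above cluster 5 at day 10, with 2292 and 1805 CPM. Both clusters were lower at day 10 than at day 6 at either age, with no overlap. In cells thinned to 2000 UMIs, 84.2% and 84.5% of cluster 5 cells held a Cxcl10 UMI at day 6 (90.3% and 90.6% unthinned), and 71.1% and 77.3% of cluster 0 cells did (69.8% and 73.0% unthinned). In B cell-like cells, 25 of 274 thinned cells in young mice and 21 of 162 in middle-aged mice held a Cxcl10 UMI at day 6. At day 10, 2.61% and 2.55% did. Median depths in this cluster were 2402 to 2997 UMIs. Whether the Cxcl10 UMIs there were the cells' own was not tested. The thinned share in T cell-like cells was 12.9% and 16.4% at day 6, and 4.31% and 3.95% at day 10.

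Cxcl9 was also highest in cluster 5, with 3088 CPM at day 6 in the young library, 2241 CPM in the middle-aged library, and 729 and 688 CPM at day 10. Clusters 1 and 7 came next, with 2315 and 1794 CPM in young mice at day 6, and the spread over libraries of these 3 clusters overlapped. Cluster 0 held far less Cxcl9 than Cxcl10 relative to cluster 5, at 672 and 393 CPM at day 6 and 220 and 196 CPM at day 10. Of cluster 0 cells thinned to 2000 UMIs, 21.0% and 14.4% held a Cxcl9 UMI at day 6 (21.0% and 15.4% unthinned).

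Cxcl16 had another order: cluster 1 was highest on average over libraries, at 346 and 477 CPM at day 6 and 512 and 388 CPM at day 10. The dendritic cell-like cluster 7 followed, with 214 and 498 CPM at day 6 and 411 and 384 CPM at day 10. Its range overlapped that of cluster 1, and in cluster 5, where Cxcl9 and, at day 6, Cxcl10 were highest by CPM, Cxcl16 stood at 123 to 195 CPM. Neutrophil-like cells held little Cxcl16, at most 32.6 CPM in any library of cluster 0.

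The receptors were concentrated elsewhere. Cxcr6 was highest in T cell-like cluster 2, at 395 and 435 CPM at day 6 and 337 and 342 CPM at day 10, and 40.1% to 45.8% of thinned cells held a UMI (55.2% to 66.0% unthinned). Cxcr3 was also highest there, at 96.3 and 66.7 CPM at day 6 and 43.4 and 48.6 CPM at day 10, with a UMI in 8.31% to 13.7% of thinned cells (20.6% to 28.5% unthinned). In B cell-like cells, at most 1.23% of thinned cells held a Cxcr6 UMI and at most 3.50% a Cxcr3 UMI. NK-like cluster 9 held 20.7 to 48.4 CPM of Cxcr3, a range that overlapped the T cell-like one.

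**Figure D1:**
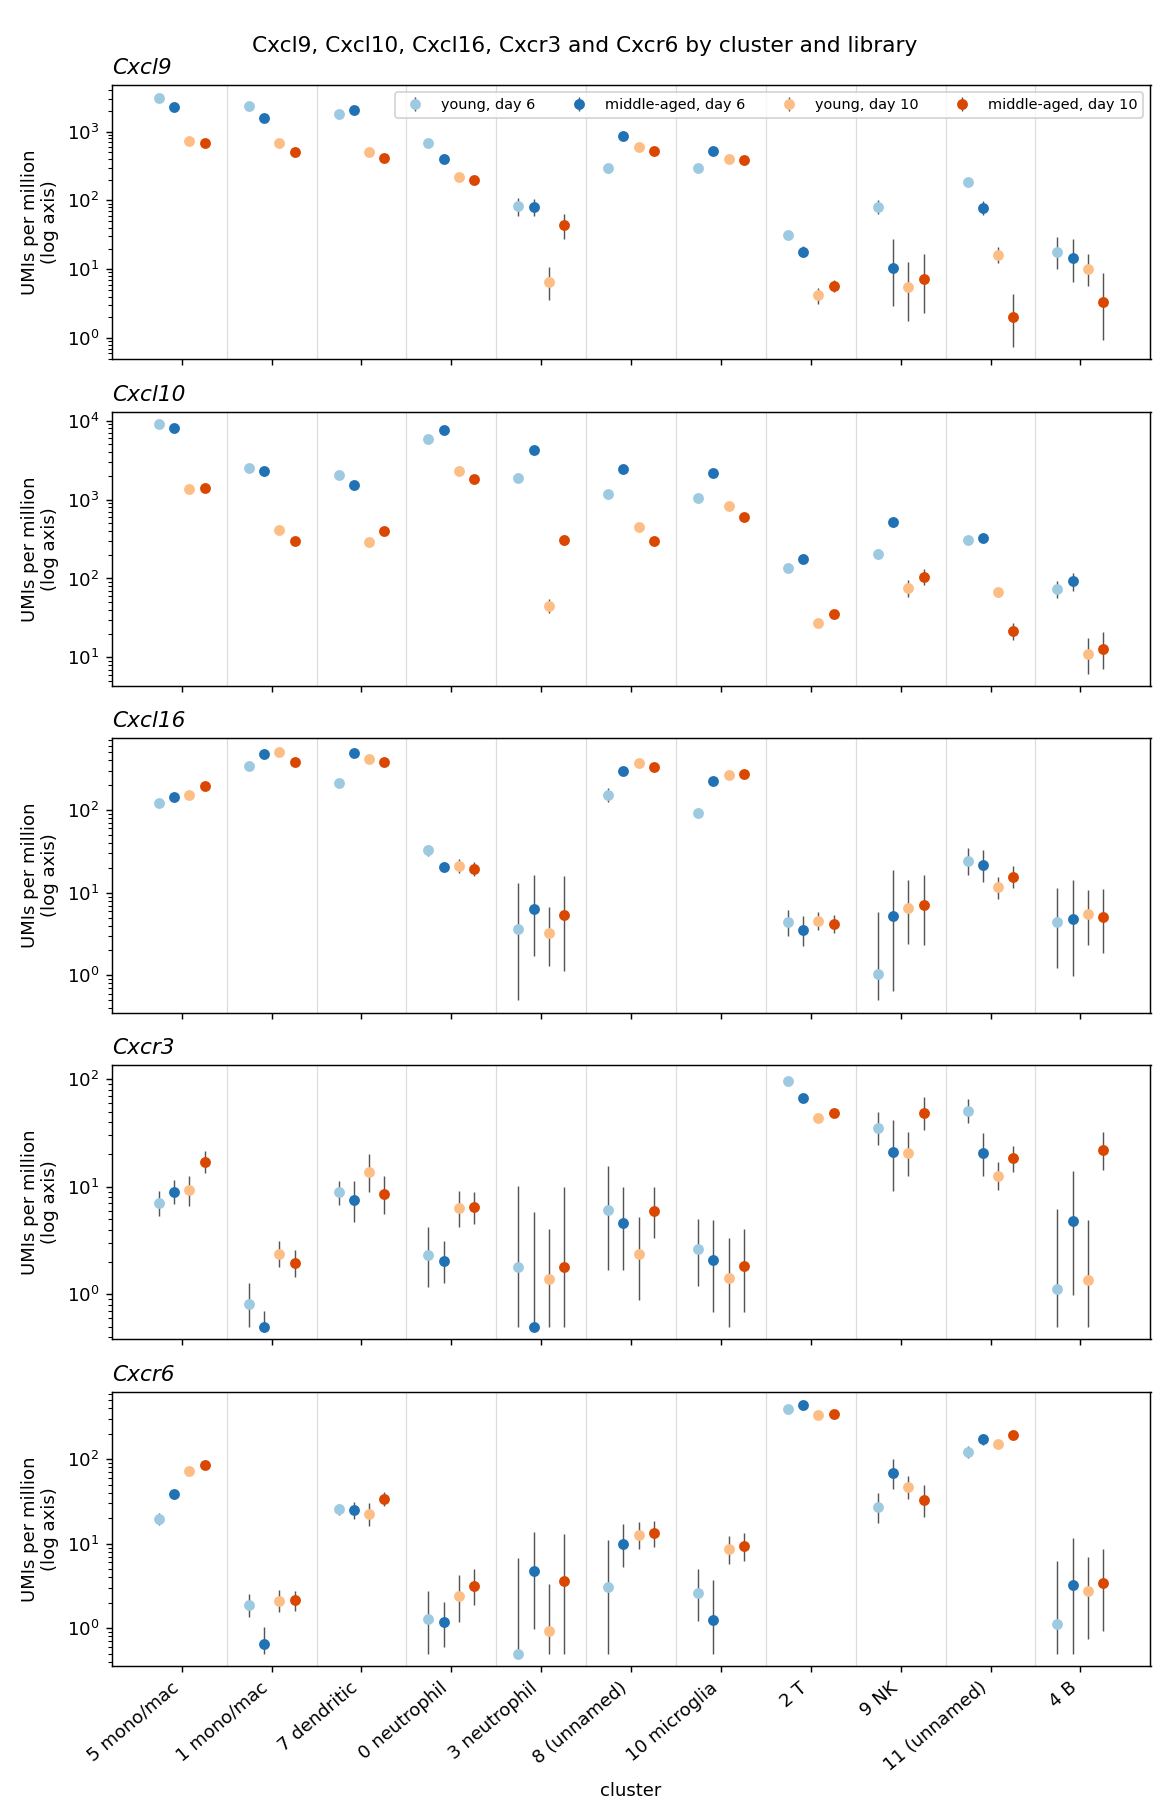
Levels of the 5 genes (UMIs per 1000000, log axis) in 11 clusters, 1 point per library, with 95% exact Poisson intervals; levels below 0.5 are drawn at 0.5. Cxcl9 and Cxcl10 sit highest in myeloid clusters at day 6 (light and dark blue), up to 8977 UMIs per 1000000 for Cxcl10 in cluster 5, while Cxcr3 and Cxcr6 sit highest in cluster 2.

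The shares of ligand transcripts that each cell type held differed by ligand and by library. Clusters 1 and 5 held 81.6% of Cxcl9 UMIs in the young and 81.5% in the middle-aged library at day 6, and 78.1% and 74.3% at day 10. For Cxcl10, clusters 0 and 3 held 16.1% of UMIs in the young library at day 6 but 37.8% in the middle-aged one, where these clusters made up 41.3% of cells against 20.7%. Clusters 8 and 10 held 1.28% to 3.39% of Cxcl9 UMIs at day 6 and 12.4% to 12.6% at day 10. Over the same libraries, their share of Cxcl16 UMIs was 3.89% and 5.73% at day 6 and 12.4% and 12.7% at day 10. Their share of all cells was 8.19% and 5.78% at day 6 and 10.5% and 11.2% at day 10. With 1 library per age and day, cell numbers in these pools have no replicate error.

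**Figure D2:**
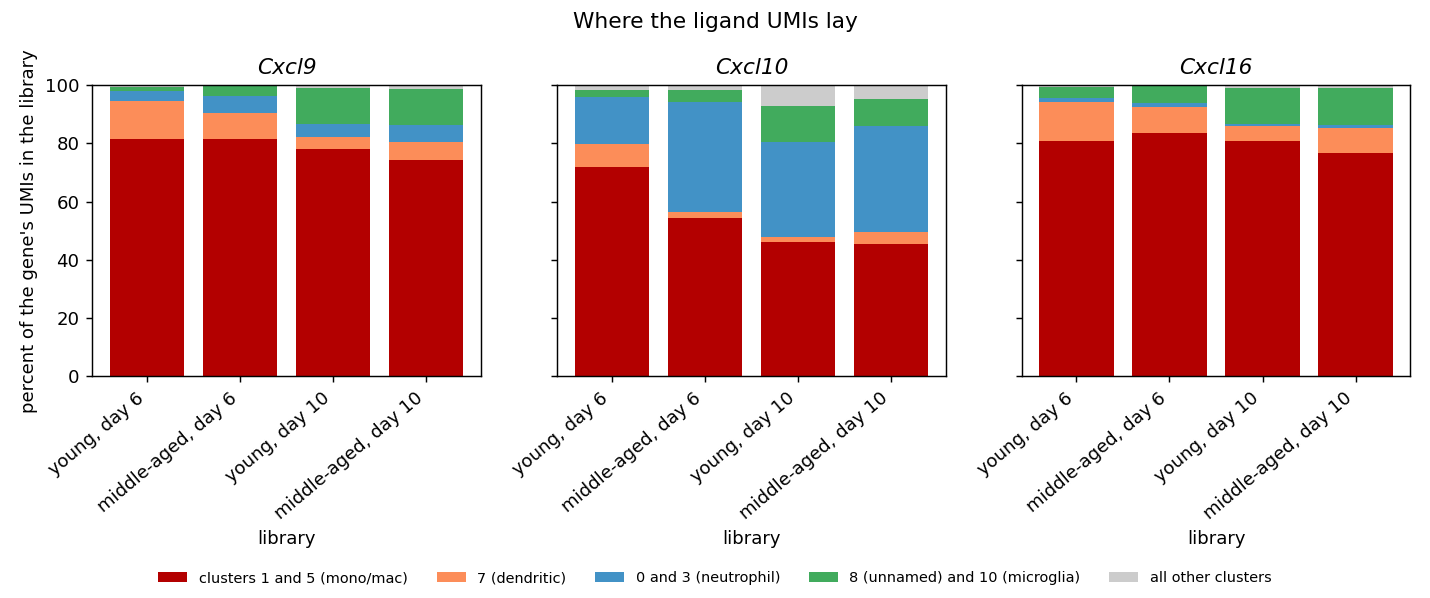
Percent of each ligand's UMIs in a library that lay in each group of clusters, as stacked bars from 0 to 100. Monocyte/macrophage-like clusters 1 and 5 held the most in every library; for Cxcl10 the neutrophil-like share was 37.8% in middle-aged mice at day 6 against 16.1% in young mice, and clusters 8 and 10 held 12.4% to 12.7% of Cxcl9 and Cxcl16 UMIs at day 10.

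The comparison of day 10 with day 6 asks how the levels of the genes differed between the days. It was tested per cluster over the 4 libraries with age as a second term (edgeR quasi-likelihood, Benjamini-Hochberg adjusted over all genes), a fit with 1 residual degree of freedom. Cxcl10 passed the test, lower at day 10, in 7 of 8 clusters fitted. Its log2 change was -2.94 in cluster 5 (edgeR adjusted p = 3.1e-10), -2.95 in cluster 1 (1.6e-06) and -2.46 in cluster 0 (5.4e-08). In T cell-like and NK-like cells it was -2.23 and -1.87, and B cell-like cells, which were not fitted, went from 73.9 and 91.6 CPM to 10.9 and 12.7 CPM. How far a level like that in B cell-like cells entered the T cell-like and NK-like changes was not tested. Cxcl9 passed the day test, also lower, in 5 of 7, with -2.18 in cluster 5 (edgeR adjusted p = 3.9e-08) and -1.90 in cluster 1 (2.0e-05). All genes called in either direction made up 54.4% of those tested in cluster 0, 29.9% in cluster 1, 7.22% in cluster 2, 25.5% in cluster 5, 6.48% in cluster 7, 13.4% in cluster 8, 2.24% in cluster 9 and 6.64% in cluster 10. A call alone therefore sets the genes little apart in clusters 0, 1 and 5, where the median log2 change over well-counted genes ranged from 0.08 to 0.68 by age.

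In dendritic cell-like cluster 7, Cxcl9 went from 1794 and 2071 CPM to 500 and 410 CPM, and Cxcl10 from 2042 and 1550 CPM to 290 and 397 CPM, with log2 changes of -2.16 and -2.46 (edgeR adjusted p = 3.1e-06 and 1.3e-06). Without either day 10 library the log2 changes were -2.32 and -2.0 for Cxcl9 and -2.25 and -2.67 for Cxcl10, but edgeR then called 0 genes in this cluster (779 of 9783 and 718 of 9402 had an unadjusted p under 0.05), and the adjusted p of both genes was 0.12 to 0.18.

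In clusters 8 and 10, Cxcl9 did not pass the day test. Its levels in cluster 8 were 292 and 859 CPM at day 6 and 598 and 519 CPM at day 10, and the day test gave a log2 change of 0.40 (edgeR adjusted p = 0.40). In cluster 10 the levels were 291 and 525 CPM at day 6 and 401 and 384 CPM at day 10, with a log2 change of 0.16 (edgeR adjusted p = 0.81). Without the middle-aged day 6 library, Cxcl9 was higher at day 10 in both clusters (edgeR log2 changes of 1.26 and 0.61, adjusted p = 2.5e-12 and 0.013). Without the young day 6 library the changes were -0.35 and -0.30 (adjusted p = 0.084 and 0.18). Cxcl10 in cluster 8 went from 1161 and 2457 CPM to 450 and 296 CPM (log2 change -1.94, edgeR adjusted p = 2.9e-05, but 0.17 with DESeq2). In cluster 10 it went from 1037 and 2159 CPM to 832 and 599 CPM (log2 change -0.93, edgeR adjusted p = 0.18, 0.033 with no filter on low counts and 0.0044 without the young day 6 library).

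Cxcl16 was higher at day 10 in both of these clusters, and the difference passed the test in cluster 8. It rose from 154 and 294 CPM to 373 and 335 CPM in cluster 8 (log2 change 0.98, edgeR adjusted p = 0.0053, DESeq2 0.097). Without cells that held T cell, B cell or neutrophil markers, its log2 day ratio was 1.21 in young mice and -0.037 (-0.23 to 0.16) in middle-aged mice, against 1.28 and 0.18 with all cells. The levels in cluster 10 were 92.5 and 228 CPM at day 6 and 269 and 271 CPM at day 10, short of the threshold (log2 change 1.04, edgeR adjusted p = 0.054, and 0.041 with RLE size factors). Day 10 libraries were above both day 6 libraries in each cluster. In clusters 1, 5 and 7, the changes were -0.03, 0.08 and 0.21, none of which passed, and Cxcl16 fell in cluster 0, where its level was low (-1.11, edgeR adjusted p = 0.00024).

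The difference in day effect between clusters 8 and 10 (summed) and clusters 1 and 5 (summed) was itself tested in 1 edgeR model with a term per library and 1 residual degree of freedom, chosen after the values were seen. The log2 day change was higher in clusters 8 and 10 by 2.40 for Cxcl9 (adjusted p = 4.8e-12), by 1.97 for Cxcl10 (6.8e-07) and by 1.20 for Cxcl16 (5.2e-05), where 28.2% of 12004 genes passed. Between single clusters, the Cxcl9 difference passed in 4 of 4 pairs, and the Cxcl10 and Cxcl16 differences in all but cluster 8 against cluster 5 (adjusted p = 0.14 and 0.11). The Cxcl10 difference was 2.02 for cluster 10 against either cluster 1 or 5, but 0.97 and 0.99 for cluster 8. For Cxcl16 the pairs gave 0.89 to 1.07, each below the summed value. Markers of other cells moved in these clusters too: the 8 monocyte/macrophage markers summed to 625 and 1001 CPM at day 6 and 1759 and 1555 CPM at day 10 in cluster 8. In cluster 10 they summed to 1157 and 1319 CPM at day 6 and 829 and 753 CPM at day 10, and none of the 8 was at 0 in every library of either cluster. Their part in the result was not tested.

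The age comparison asks whether middle-aged mice differed from young mice on the same day. Over both days, 1 of 36 tests of the 5 genes across 8 clusters passed in edgeR, against 0.208% of genes in cluster 0, 0.0982% in cluster 1, 0.0616% in cluster 2, 0.655% in cluster 5, 0.466% in cluster 7, 0.0956% in cluster 8, 0.600% in cluster 9 and 0.142% in cluster 10. The call was Cxcl10 in NK-like cluster 9, at 206 and 521 CPM at day 6 and 75.2 and 105 CPM at day 10 (log2 change 1.04, edgeR adjusted p = 2.9e-05). It rested on few cells: 10 of the 96 middle-aged day 6 cells held 87.8% of the Cxcl10 UMIs. Without the 10 cells with the most UMIs in each library the day 6 ratio went from 1.34 to -0.11, and without the middle-aged day 6 library the change was -0.40 (adjusted p = 1.00). With DESeq2 none of the 36 passed.

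Day by day, the ratios of Cxcl9 and Cxcl10 at day 6 were higher in clusters 8 and 10 than in clusters 0, 1, 5 and 7. A higher Cxcl10 level in middle-aged mice was not particular to them, as cluster 9 above and neutrophil-like cluster 3 also had it. At day 6 cluster 3 held 1023 Cxcl10 UMIs of 551846 (young) and 2674 of 631557 (middle-aged), and 45 and 50 of Cxcl9. At day 10 its Cxcl10 UMIs were 98 of 2158080 and 170 of 554894. In cluster 8 the day 6 log2 ratio (middle-aged to young) was 1.56 for Cxcl9 (95% interval 1.33 to 1.79), 1.08 for Cxcl10 (0.97 to 1.20) and 0.94 for Cxcl16 (0.62 to 1.27). In cluster 10 it was 0.85 for Cxcl9 (0.73 to 0.97), 1.06 for Cxcl10 (1.00 to 1.12) and 1.30 for Cxcl16 (1.10 to 1.50). Past a 2-fold ratio lay 2.15% of well-counted genes in cluster 8 and 1.50% in cluster 10, around medians of -0.03 and -0.04. At day 10, the ratios in cluster 8 were -0.21, -0.61 and -0.16, and those in cluster 10 -0.06, -0.47 and 0.01.

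The shares of cells moved as the levels did: 15.2% of young and 31.6% of middle-aged cluster 8 cells, thinned to 2000 UMIs, held a Cxcl9 UMI at day 6 (14.9% and 31.9% unthinned). For Cxcl10 the thinned shares were 33.3% and 57.3% (35.3% and 59.3% unthinned). In cluster 10 they were 6.81% and 19.6% for Cxcl9 and 31.4% and 52.8% for Cxcl10 (unthinned, 11.8% and 32.9%, and 46.5% and 74.1%). In the same libraries, the 8 microglial markers summed in cluster 8 to 5989 and 3921 CPM (young, then middle-aged), and in cluster 10 to 10055 and 6280 CPM. The 9 neutrophil markers summed to 6861 and 10158 CPM in cluster 8 and to 4487 and 1284 CPM in cluster 10. The part of either list in the ratios was not tested. Without cells that held markers of another lineage, the 6 ratios at day 6 were between 1.00 and 1.79. That filter used T cell, B cell and neutrophil markers in clusters 8 and 10, so it could not take out monocyte/macrophage RNA. Single libraries give no replicate error for these ratios, and over both days the difference in age effect between clusters 8 and 10 and clusters 1 and 5 passed for 0 of 3 ligands in edgeR (adjusted p = 0.19 for Cxcl9, 1.00 for Cxcl10 and 0.92 for Cxcl16, with 0.267% of genes called). The p before adjustment was 0.0013, 0.086 and 0.026. Of 4 single pairs, the Cxcl9 difference passed for cluster 8 against cluster 1 (log2 difference 1.10, edgeR adjusted p = 1.4e-05), where 9 of 11277 genes did.

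In clusters 0, 1, 5 and 7 the age ratios differed in sign between ligands and days. Cxcl9 had a log2 ratio of -0.54 in cluster 1 at day 6 (-0.56 to -0.52) and -0.44 at day 10 (-0.47 to -0.40), and of -0.46 and -0.08 in cluster 5. Cxcl10 had -0.10 in cluster 1 at day 6, which became 0.03 under TMM scaling, and -0.45 at day 10. Cxcl16 had 0.46 in cluster 1 at day 6 (0.42 to 0.50) but -0.40 at day 10 (-0.44 to -0.36), and 1.22 in cluster 7 at day 6 (1.11 to 1.33) against -0.10 at day 10. In cluster 0, Cxcl9 was lower in middle-aged mice at day 6 (-0.77, -0.84 to -0.71) while Cxcl10 was higher (0.40, 0.38 to 0.42).

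**Figure D3:**
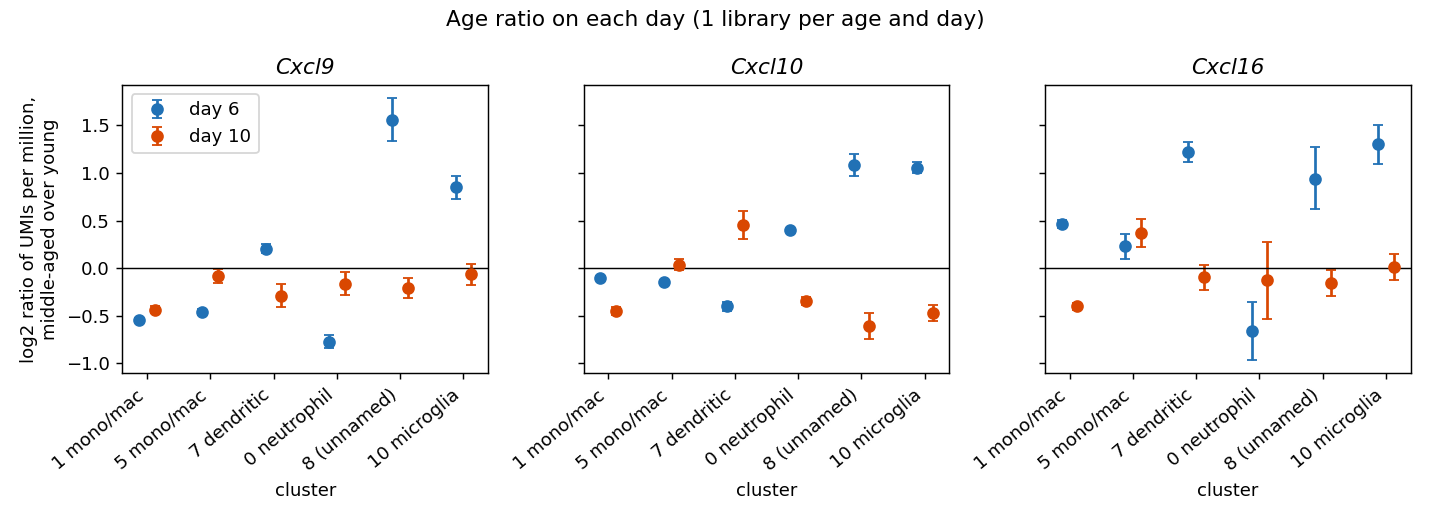
Log2 ratio of CPM, middle-aged over young, on each day in 6 clusters, with 95% exact intervals for counting error. At day 6 all 3 ligands lie above 0 in clusters 8 and 10 (0.85 to 1.56), and at day 10 the same ratios lie between -0.61 and 0.01.

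Among T cell-like cells, Cxcr3 was lower at day 10 (log2 change -0.70, edgeR adjusted p = 0.026), a call lost with DESeq2 (adjusted p = 0.12) and without either day 10 library (0.27 and 0.19). By age, Cxcr3 had a log2 ratio of -0.53 (-0.70 to -0.36) at day 6 and 0.16 (0.01 to 0.32) at day 10. Cxcr6 differed by day with a log2 change of -0.18 (edgeR adjusted p = 0.73) and by age with ratios of 0.14 (0.06 to 0.21) and 0.02 (-0.03 to 0.08). Outside T cells, Cxcr6 in cluster 5 rose from 19.6 and 38.3 CPM to 72.2 and 86.3 CPM (log2 change 1.22, edgeR adjusted p = 0.00038, but 0.095 and 0.16 without either day 10 library). The 8 T cell markers summed there to 391 and 521 CPM at day 6 and 1145 and 1619 CPM at day 10, and their part in the result was not tested. Without cells that held markers of another lineage, the age ratios of Cxcr6 in cluster 5 went from 0.96 to -0.52 at day 6 and from 0.26 to -0.27 at day 10. That filter dropped 252 of 817 young and 382 of 641 middle-aged cells of cluster 5 at day 6. At day 10 it dropped 370 of 409 and 262 of 344, so the filtered ratios cover a small and uneven part of the cluster. The remaining receptor calls were Cxcr3 in cluster 1 (at most 2.38 CPM) and Cxcr6 in cluster 10 (at most 9.27 CPM), and both were lost with DESeq2 (adjusted p = 0.098 and 0.25). B cell-like cells held 1.12 to 22.1 CPM of Cxcr3, highest in the middle-aged day 10 library (26 UMIs), and 1.12 to 3.40 CPM of Cxcr6.

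T cell-like cells with a Cxcr6 UMI differed from those without one in the other genes they held, in all 4 libraries. Of 12 panel genes, 4 were found in a larger share of cells with Cxcr6 in every library, 6 in a smaller share, and Mki67 and Tbx21 went both ways, with every cell thinned to 2000 UMIs. The 4 were Cd4 and the cytokine genes Il17a, Ifng and Csf2. Ifng was held by 18.2% of cells with and 7.33% of cells without Cxcr6 in the young library at day 6, and by 26.5% and 12.6% in the middle-aged one. At day 10 the shares were 27.5% and 19.1% in young and 21.6% and 16.4% in middle-aged mice. Il17a was held by 4.31% against 1.70% in young mice and 9.58% against 6.57% in middle-aged mice at day 6, and by 9.31% against 6.37% and 14.1% against 7.97% at day 10. In a second random thinning to the same depth, added after seeing the data, the Il17a shares of middle-aged mice at day 6 were 8.27% and 8.35%, so that its direction there depended on the draw. Tbx21, which encodes a lineage factor of T helper 1 cells, was held by 6.26% against 3.27% and 8.38% against 4.04% of cells at day 6, and by 6.42% against 6.64% and 6.57% against 5.70% at day 10, where the second draw turned both differences around (5.68% against 4.91% and 5.27% against 5.76%). Without thinning, Tbx21 and Mki67 were also in a larger share of cells with Cxcr6 in each library.

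The 6 genes held less often by cells with Cxcr6 were the same in both draws and without thinning. They included the homing genes Ccr7 and S1pr1, which guide T cells through lymph nodes, their regulator Klf2, and Tcf7, a factor of naive and memory cells. Tcf7 was found in 14.7% of cells with against 33.2% without Cxcr6 in young mice at day 6, and in 9.38% against 23.6% in middle-aged mice. At day 10 the shares were 7.73% against 17.4% and 9.91% against 20.8%. Cd8a and Foxp3, the latter the factor of regulatory T cells, were the other 2, with Cd8a in 0.809% to 4.70% of cells with Cxcr6 and in 5.12% to 8.64% of those without.

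Cells with and without a Cxcr3 UMI were split the same way. Of the 12 panel genes, 4 were in a smaller share of cells with Cxcr3 in every library (Ccr7, Csf2, Ifng and Il17a) and 1 in a larger share (Cd8a). Csf2 was held by 0 of 175 cells with Cxcr3 in young mice at day 6, which allows a share of up to 1.71% of cells with a UMI at this depth and does not limit the share that express the gene. Of those without Cxcr3, 2.36% held a Csf2 UMI. At day 10 it was held by 5.13% against 14.2% in young and 3.46% against 10.6% in middle-aged mice, and Ifng by 10.9% against 23.6% and 11.7% against 19.3%. Without thinning, Ccr7 and Ifng no longer pointed one way in every library, Foxp3, S1pr1 and Tcf7 joined Cd8a in a larger share of cells with Cxcr3 in each, and the Cd8a difference in middle-aged mice at day 6 (5.84% against 5.74%) was within counting error. Cxcr6 was held by 44.6% of cells with and 39.4% of cells without Cxcr3 in young and by 47.4% and 45.5% in middle-aged mice at day 6. At day 10 the shares were 39.7% against 40.7% and 36.4% against 42.6%. In the second draw the middle-aged day 6 shares were 41.1% and 48.3% and the young day 10 shares 41.9% and 40.2%, so that no order was read from these. Cluster 2 was built from these genes among others, and Il17a, Csf2 and Cxcr6 were among its 10 leading genes, so these shares describe cells within it.

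**Figure D4:**
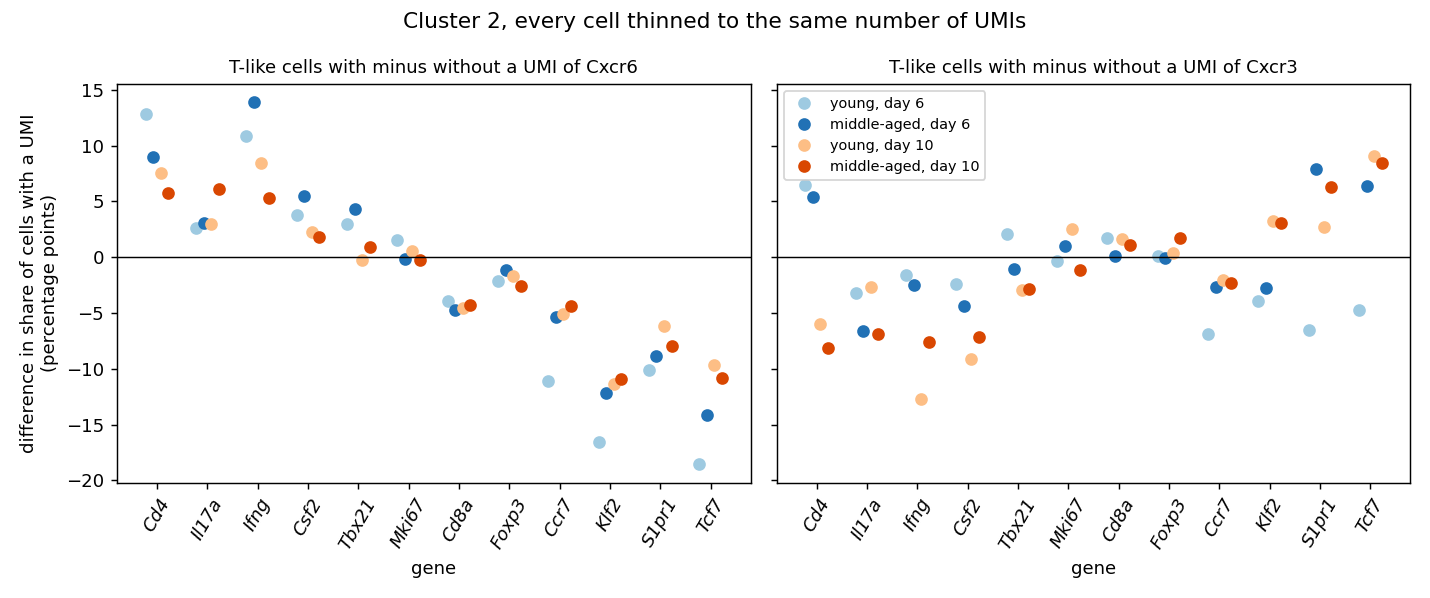
Share of T cell-like cells (cluster 2) with a UMI of each panel gene, as the difference in percentage points between cells with and without a UMI of Cxcr6 (left) or Cxcr3 (right), 1 point per library, after thinning to 2000 UMIs. For Cxcr6, the cytokine genes lie above and the homing genes below 0 in each library; for Cxcr3, Il17a, Ifng and Csf2 lie below 0 in each.

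The same split was made for the ligands in myeloid cells, again after thinning. In clusters 1 and 5, cells with a Cxcl10 UMI more often held Irf1, Gbp2, Cd274, Isg15 and Fgl2, which interferons induce, and less often Arg1, an alternative-activation gene, in 4 of 4 libraries. Without thinning, Arg1 no longer pointed one way in every library of cluster 5. H2-Ab1 was also held less often by cells with Cxcl10, in 4 of 4 libraries of cluster 1 in every setting. In cluster 5 this was so in 3 of 4 libraries after thinning, 4 of 4 in the second draw and 2 of 4 without thinning. In dendritic cell-like cluster 7 the direction was the opposite: H2-Ab1 was held more often by cells with Cxcl10, and by cells with Cxcl9. This was so in 4 of 4 libraries in every setting. Cells with a Cxcl9 UMI in clusters 1 and 5 more often held the same 5 genes, and also Nos2 and Ccl5. Ccl5 was not one-sided in cluster 5 without thinning or in the second draw. In cells with a Cxcl16 UMI, Cd274, Ccl5, Nos2 and H2-Ab1 were more frequent in every library of clusters 1 and 5, whereas Irf1 was not. Gbp2 was also more frequent in 4 of 4 libraries of cluster 1. Fgl2 was less frequent there in 4 of 4 in both draws, but not one-sided without thinning. Arg1 was more frequent in 4 of 4 libraries of cluster 5 in every setting, and not one-sided in cluster 1 after thinning. In microglia-like cluster 10, Gbp2 was the 1 gene of the 9 more frequent with Cxcl10 in each library, against 3 in the second draw and 7 without thinning. In cluster 8, cells with a Cxcl16 UMI held Cd274 less often in each library after thinning and more often without it, and the second draw did not point one way.

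Over 52 sums of a cluster in a library with 50 or more cells, the genes with levels most like Cxcl10 were Ifi204 (Pearson's r of log2 levels 0.96), Gbp2 (0.93) and Tgm2 (0.93), and those most like Cxcl9 were Batf2 (0.92), Ifi211 (0.90) and Ifi205 (0.90). For Cxcl16 they were Sh3pxd2b (0.95), Dab2 (0.95) and Aif1 (0.94). Cxcr6 was most like Cd3g (0.97), Bcl11b (0.97) and Lat (0.97), and Cxcr3 most like Trbc1 (0.90), Lat (0.90) and Trbc2 (0.90). Between ligands r was 0.81 for Cxcl9 with Cxcl10, 0.82 for Cxcl9 with Cxcl16 and 0.47 for Cxcl10 with Cxcl16, and between the receptors 0.86. These sums share 4 libraries and their depths, and the values describe cell types more than conditions.

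Of 22 other genes of the pathway, from interferon-gamma and its receptor to IRF1, the CXCL16 sheddases and NF-kB, none passed the age test in any of the 8 clusters. By day, 13 of 18 tested were lower at day 10 in cluster 0, 8 of 20 in cluster 1, 4 of 22 in cluster 2 (1 higher), 9 of 22 in cluster 5 (1 higher), 3 of 21 in cluster 7, 3 of 18 in cluster 8 (1 higher) and 1 of 15 in cluster 10, and in cluster 9 1 of 20 was higher. Over all genes tested, the share called lower at day 10 was 27.2% in cluster 0, 15.2% in cluster 1, 3.25% in cluster 2, 15.3% in cluster 5, 4.55% in cluster 7, 6.90% in cluster 8, 1.37% in cluster 9 and 3.46% in cluster 10. The share called higher, in the same order of clusters, was 27.2%, 14.7%, 3.97%, 10.2%, 1.93%, 6.50%, 0.871% and 3.18%. Socs1, the feedback inhibitor that interferon-gamma induces, was lower in each of these clusters but cluster 9. Ifng itself, in T cell-like cells, had 441 CPM at day 6 in the young library and 1500 CPM in the middle-aged one, and 559 and 361 CPM at day 10, and passed neither test. The middle-aged day 6 library, with the highest Ifng, also had the highest Cxcl9 and Cxcl10 levels in clusters 8 and 10. It stood below the young day 6 library for Cxcl9 in clusters 0, 1 and 5 (log2 ratios of -0.77, -0.54 and -0.46) and for Cxcl10 in clusters 1, 5 and 7 (-0.10, -0.14 and -0.40). How these levels are related was not tested.

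In bulk microglia of mice without EAE, at 79373420 counts in the young and 76293436 in the middle-aged library, Cxcl16 had 3620 and 4694 counts (45.6 and 61.5 CPM), a log2 ratio of 0.43 (0.37 to 0.49). Cxcl9 had 128 and 155 counts (0.33, -0.01 to 0.68), within counting error. Cxcl10 had a log2 ratio of 1.58 (1.43 to 1.72), past a 2-fold ratio, as were 1.10% of 14821 genes with 100 or more counts, around a median of -0.01. Cxcr3 had 167 and 108 counts (-0.57, -0.93 to -0.21) and Cxcr6 64 and 78 (0.34, -0.15 to 0.84), in libraries where the 8 T cell markers summed to 113 and 133 counts. Ifng had 0 counts in both. Of the pathway genes, Tnf had 4351 and 8742 counts (1.06, 1.01 to 1.12). The counting ignored strand, so that reads of Cxcl10 and Art3, Cxcr6 and Fyco1, and Cxcl16 and Zmynd15 are not told apart where they overlap. The monocyte/macrophage markers summed to 200 and 70.4 CPM, and the endothelial ones to 340 and 110 CPM. Their part in these ratios was not tested, fewer cells of a type and less RNA per cell cannot be told apart in bulk, and the 2 libraries have no replicate check.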

How the data were processed

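Per the labels and the study's methods, single-cell libraries were made with 10x Genomics chemistry and counted by the authors with Cell Ranger 3.1.0 on mm10. The deposited table holds UMI counts per gene and cell after the authors' filters on genes, reads, mitochondrial and ribosomal shares. A second deposited table gives the authors' cluster of each cell. Bulk microglial reads were counted per gene by the authors with HISAT2 and featureCounts, without strand. UMIs were summed per cluster and library and divided by the sum's total (CPM). Ratios carry exact conditional binomial 95% intervals. Day and age were fitted per cluster with edgeR 4.0.16 (R 4.3.3, TMM, 10 or more UMIs in 2 or more of 4 libraries, adjusted p threshold 0.05). DESeq2 1.42.0 was an alternative. Libraries are single pools with no replicate of an age and day. Per-cluster p-values rest on departures of the 4 libraries from additive day and age effects, and on variability shared across genes. They measure no spread between like libraries, and an age effect that differs between days counts there as error. Shares of cells were taken after thinning each cell to 2000 UMIs, leaving out shallower cells. No doublet caller was run; cells with markers of another lineage were left out as an alternative. The edgeR fit of cluster 1 and the type of interval used for ratios were tried on simulated counts. The test between cluster groups, the thinning, the panels and the correlations were not. The genes, lists and panels were chosen with earlier results of these data known. Named genes were the 5 genes, the pathway and panel lists, and for each gene the 3 with the highest Pearson's r; the cluster 0 fits and the test between cluster groups were added after seeing the data. Some genes of these lists are not reported here.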

Additional observations from a re-analysis of the deposited data

Results flagged for a closer look

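In 9 cases the age ratio of a gene in a cluster pointed one way at day 6 and the other way at day 10, with both counting intervals clear of 0. Each rests on 1 library per age and day, and the difference between days was not tested. In cluster 8 the log2 ratio (middle-aged to young) went from 1.56 to -0.21 for Cxcl9, from 1.08 to -0.61 for Cxcl10 and from 0.94 to -0.16 for Cxcl16. In microglia-like cluster 10 it went from 1.06 to -0.47 for Cxcl10. Cxcl10 went from 0.40 to -0.34 in neutrophil-like cluster 0 and, in the other direction, from -0.40 to 0.45 in dendritic cell-like cluster 7, where Cxcl9 went from 0.21 to -0.29. Cxcl16 went from 0.46 to -0.40 in monocyte/macrophage-like cluster 1. Cxcr3 in T cell-like cluster 2 went from -0.53 to 0.16.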

How the results depend on the processing

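Recomputing the ratios under other settings gave 278 values for age and 263 for day, each 1 ratio in 1 setting. Of these, 6 and 4 changed sign where the main 95% counting interval excluded 0. A further 70 and 133 moved outside the main interval. Sign changes of ratios whose main interval held 0 are not among the 6 and 4. Under TMM scaling the day 6 age ratio (log2) was 0.026 for Cxcl10 in cluster 1, -0.11 for Cxcl10 and -0.43 for Cxcl9 in cluster 5, 0.58 for Cxcl16 in cluster 1 and 0.22 for Cxcr6 in cluster 2, where it was -0.040 at day 10, and the young day ratio of Cxcl16 in cluster 5 was -0.031. Without cells holding another lineage's markers, age ratios in cluster 5 were -0.10 (day 6) and -0.49 (day 10) for Cxcl10, -0.30 and -0.84 for Cxcl9, -0.52 and -0.27 for Cxcr6, and -0.31 (day 10) for Cxcl16. In the same setting the day ratio was 0.015 for Cxcl10 in cluster 10 of young and -0.037 for Cxcl16 in cluster 8 of middle-aged mice. At day 10 that setting dropped 370 of 409 young and 262 of 344 middle-aged cells of cluster 5, and 214 of 362 young cells of cluster 10. Without the 10 cells with the most UMIs, age ratios were -0.11 for Cxcl10 in cluster 9 and -0.54 for Cxcl9 in cluster 5 at day 6, and 0.11 for Cxcl10 in cluster 5 and 0.073 for Cxcl9 in cluster 0 at day 10. As a mean over cells they were -0.12 (day 6) and 0.26 (day 10) for Cxcl10 and -0.43 for Cxcl9 (day 6) in cluster 5 and -0.21 for Cxcr3 in cluster 2 (day 6), and the young day ratio of Cxcl10 in cluster 10 was 0.10.

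The 1 age call among the 5 genes became 0 with DESeq2, without the term for day and with no filter on low counts, and 0 to 1 leaving out a library, where its log2 change was -0.40 to 2.01. Genes called for age, summed over 8 clusters, went from 218 (4290 at an unadjusted p under 0.05) to 60 with DESeq2, 3 without the term for day, 885 with no filter and 1 to 34 leaving out a library. Genes called by day went from 14962 to 7018 with DESeq2 and 5992 to 17911 leaving out a library. The day change of Cxcr3 in cluster 2 was -0.71 with DESeq2 (not called) and -0.93 to -0.47 leaving out a library, and that of Cxcl16 in cluster 7 ranged from -0.41 to 0.84. The day difference of cluster 8 against cluster 5, 0.99 for Cxcl10 and 0.89 for Cxcl16, was not called. The causes were not tested. A left-out library leaves 1 sample in an arm, which is assumed to vary like the others. No paired analysis was possible because each age and day has 1 library and the labels give no replicate numbers. Levels near those in B cell-like cells are limited by depth.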
